A study of Mus musculus with 2 samples.

Results

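The EYA and SIX-family genes were described here by 7 members, Eya1, Eya2, Eya3, Eya4, Six2, Six4 and Six5, in mouse leukaemic stem cells driven by MLL-AF9. The genes were chosen by name, as the probes whose platform annotation gives one of these symbols. This found 17 probes, and the 7 genes were 7 of 19057 genes with a named probe. Total RNA of bone marrow leukaemic stem cells was read on 2 Illumina bead arrays of 45281 probes each. The sample labelled PirBTM carried MLL-AF9 and the PirBTM genotype of Pirb, an inhibitory immunoglobulin-like receptor of myeloid and B cells, and the other carried MLL-AF9 with the label wild type. MLL-AF9, a fusion of Kmt2a with Mllt3 that causes acute myeloid leukaemia, was thus present in both groups, and the strain of both was C57BL/6J at 9 weeks of age. The change that PirBTM makes in Pirb, the way MLL-AF9 was introduced, the sort of the cells and any pooling of animals are not stated in the sources used here. Each group had 1 array, so no value below has a replicate error, no test between the groups was possible, and the comparison is of these 2 samples. The array names in the labels place both arrays on the same BeadChip, so array position and genotype cannot be told apart.

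EYA proteins are transcriptional coactivators that carry a tyrosine phosphatase in their conserved C-terminal domain. They have no DNA-binding domain of their own and reach their target genes by binding SIX-family proteins, homeodomain transcription factors, and this pairing drives the growth of organ progenitors in the kidney, ear, muscle and eye. In mouse haematopoietic progenitors Eya1 is known as a gene switched on by MLL fusions, beside the HOXA genes and Meis1.

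The RefSeq table of mouse assembly GRCm38.p6 gave promoter windows, from 250 bases before to 50 bases after an annotated start, for 5 of the 7 genes: Eya3, Eya4, Six2, Six4 and Six5. The MLL part of MLL-AF9 keeps a domain that binds unmethylated CpG, so CpG sites are in capitals in the 3 windows printed here. The window of Eya3 stands for the family member that was above background on both arrays, and those of Six2 and Six4 for members that were above background on neither array.
Eya3 (chr4:132638796-132639095, plus strand): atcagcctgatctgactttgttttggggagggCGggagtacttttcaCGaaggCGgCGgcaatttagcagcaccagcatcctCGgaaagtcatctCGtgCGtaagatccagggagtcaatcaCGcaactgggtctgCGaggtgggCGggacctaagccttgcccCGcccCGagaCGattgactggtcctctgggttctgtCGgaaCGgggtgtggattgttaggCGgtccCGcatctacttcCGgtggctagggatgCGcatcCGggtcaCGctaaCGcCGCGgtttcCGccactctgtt
Six2 (chr17:85688205-85688504, minus strand): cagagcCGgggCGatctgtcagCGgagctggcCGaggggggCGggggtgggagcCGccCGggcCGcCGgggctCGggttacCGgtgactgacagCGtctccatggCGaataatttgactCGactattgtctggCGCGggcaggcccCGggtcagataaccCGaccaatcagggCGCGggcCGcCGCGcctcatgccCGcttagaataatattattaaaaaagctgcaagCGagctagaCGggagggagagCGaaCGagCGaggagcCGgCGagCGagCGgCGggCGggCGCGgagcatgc
Six4 (chr12:73113196-73113495, minus strand): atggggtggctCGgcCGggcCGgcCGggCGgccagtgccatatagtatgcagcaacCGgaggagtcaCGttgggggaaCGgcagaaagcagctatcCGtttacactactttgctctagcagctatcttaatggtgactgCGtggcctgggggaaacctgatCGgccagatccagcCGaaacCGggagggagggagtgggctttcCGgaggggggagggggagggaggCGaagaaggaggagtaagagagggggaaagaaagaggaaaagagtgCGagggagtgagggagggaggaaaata

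The Eya3 window held 25 CpG, that of Six2 held 37 and that of Six4 held 16, against a median of 7 over all 32851 windows of the table. The 7 windows of the family ranged from 15 to 37 CpG, so CpG-rich windows were found both for the gene that was above background and for genes that were not. Both strands were searched for 3 motifs, which did not overlap in these windows. The core of the MEF3 site bound by SIX-family proteins, TCAGGTT, was found in 1 window of the family, that of Six4 printed above, where it starts at position -97 from the annotated start, and in 4.07% of all windows. The MEIS core TGACAG was found in 2 of the 7 windows, those of Six2 and Six5, and in 19.2% of all windows. The HOX-PBX motif TGATNNAT was found in 0 of the 7 and in 8.85% of all windows. These matches describe letters in the windows and are not binding sites.

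Eya1 was bright on the wild-type array and at background on the PirBTM array. Eya1, a phosphatase-coactivator needed for kidney and ear formation, is represented by 4 probes. Probe ILMN_2638487 had a deposited signal of 1319 on the wild-type array and 140.3 on the PirBTM array. Probe ILMN_2430513 read 988.4 on the wild-type array and 131.8 on the PirBTM array. Both PirBTM readings lay below the mean of the background inferred for that array, 147.2 (SD 14.0, over negative controls), whereas the wild-type background was 139.3 (SD 11.6). Probe ILMN_2686435 was weaker but pointed the same way, at 246.8 on the wild-type array and 139.5 on the PirBTM array. The detection p-value, which sets a probe against the negative controls of its array, was listed at 0 for these 3 probes on the wild-type array, and was 0.666, 0.923 and 0.701 on the PirBTM array in the order given. Probe ILMN_2444322 was dark on both arrays, at 154.3 on wild type (detection p-value 0.109) and 150.5 on PirBTM (0.318), and gives no ratio.

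**Figure D1:**
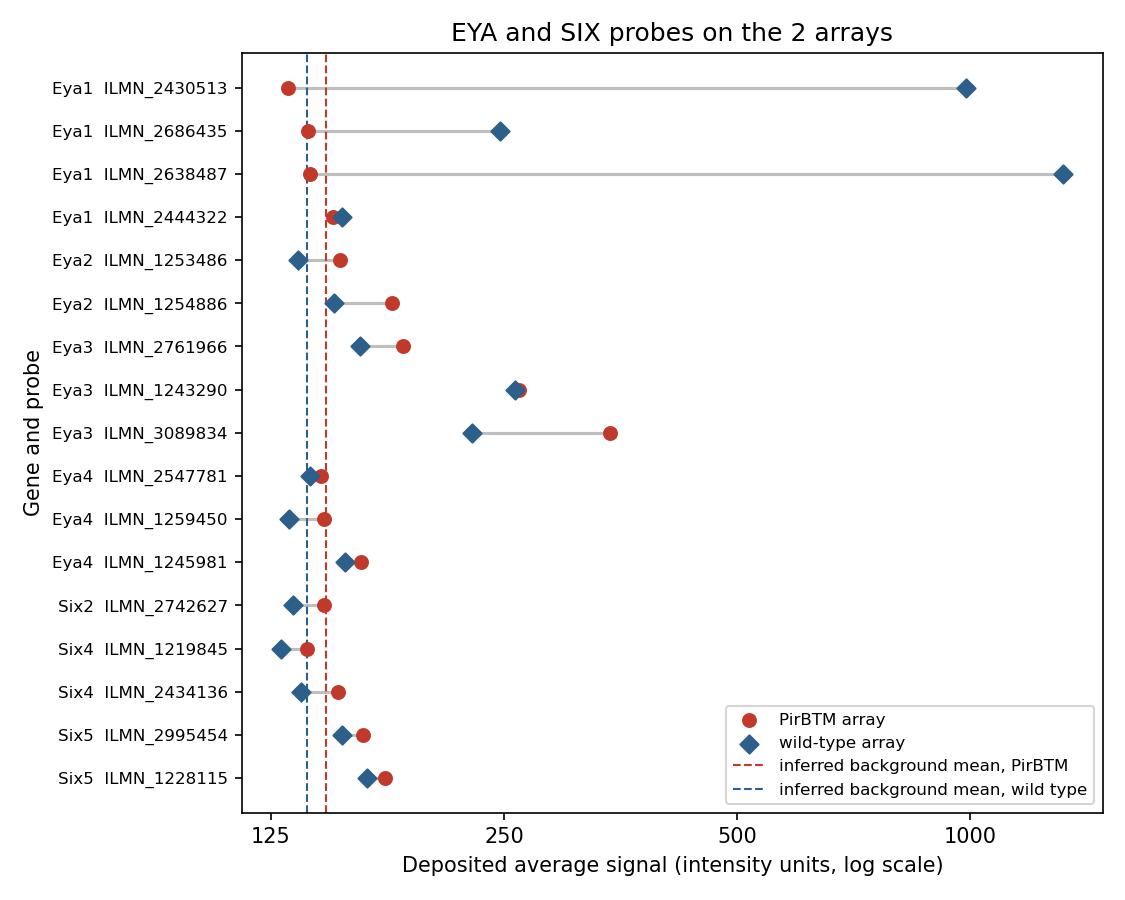
Deposited average signal (log axis, intensity units) of each of the 17 EYA and SIX-family probes on the PirBTM array (circles) and the wild-type array (diamonds), with the inferred background mean of each array as a dashed line. Of the 4 Eya1 probes, 3 are above background on the wild-type array, at 1319, 988.4 and 246.8, and at background on the PirBTM array. The probes of Eya2, Eya4 and the SIX-family genes stay between 129 and 179.

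After background correction and quantile normalization, the brightest Eya1 probe had a log2 intensity of 10.35 on wild type and 4.59 on PirBTM, a measured difference of -5.77. Detection p-values below 0.01 were taken as above background, and a gene that met this on 1 array has a bound in place of a fold. The bound sets the bright value against the higher of the dim probe's own value and the dimmest detected probe of that array, which was 5.67 on PirBTM. By this rule Eya1 was at least 25.7-fold lower in PirBTM by ILMN_2638487, at least 18.8-fold by ILMN_2430513 and at least 2.88-fold by ILMN_2686435. On the wild-type array the last probe lay 9.23 background SDs above the mean, against 101 and 72.9 SDs for the others. Without background correction and in the authors' deposited normalized values, the bound of ILMN_2686435 fell inside 2-fold (log2 bounds of -0.62 and -0.57), while the gene's brightest probe stayed at least 8.04-fold lower in both. The measuring SD of the log2 ratio of a single probe was 0.30, estimated from 2944 genes with 2 detected probes. It covers disagreement between probes, not variation between animals or RNA preparations.

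Eya1 belonged to a small class of genes. Of all 19057 genes, 431 (2.26%) were above background on the wild-type array and not on the PirBTM array, 1143 (6.00%) the other way round, 7858 (41.2%) on both and 9625 (50.5%) on neither. The bound of Eya1 had rank 3 among the 431, whose median bound was 1.61-fold. Igf2bp3, a fetal RNA-binding protein, was at least 91.6-fold lower and Hoxa5 at least 33.5-fold.

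Eya3 was the family member detected on both arrays, and its probes disagreed on the direction. Eya3 is an EYA phosphatase known for its part in repair of DNA damage, where it removes a phosphate from a tyrosine of histone H2AX. Probe ILMN_3089834 had a deposited signal of 342.2 on PirBTM and 227.5 on wild type. Probe ILMN_1243290 read 261.5 on PirBTM and 258.5 on wild type. All 4 of these readings had a detection p-value listed at 0. The first probe therefore was brighter on the PirBTM array as deposited, while the second was nearly level. After normalization the log2 ratios, PirBTM minus wild type, were 0.52 and -0.56. They differ by 1.08, against an SD of 0.42 for the difference between probes of 1 gene, and 2.28% of the 2944 genes had probes at least this far apart. Their mean was -0.024. These probes were annotated to different transcript records of Eya3, and whether they read different isoforms was not tested. The third probe, ILMN_2761966, lay near background, at 185.0 on PirBTM (detection p-value 0.0203) and 163.0 on wild type (0.0449), with a log2 ratio of 0.01. No probe of Eya3 reached 2-fold in the main processing (the first gave 1.02 with no normalization between arrays), and no direction can be given for the gene.

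The scale itself bears on a ratio as small as that of Eya3. Over all genes detected on both arrays the log2 ratio had a median of -0.22, against 0.03 with cyclic loess, -0.10 with median scaling and 0.11 with no normalization between arrays. Relative to the median of -0.22, the brighter Eya3 probe lay at 0.74 and the other at -0.34. The brighter probe stayed above 0 and the other below 0 under each of the alternatives in which they were read singly. The other probe was close to 0 in some of them. Its log2 ratio was -0.05 with no normalization between arrays, -0.26 with cyclic loess and -0.27 with median scaling, each smaller than the measuring SD of 0.30. In the remaining alternatives it lay from -0.56 to -0.28.

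**Figure D2:**
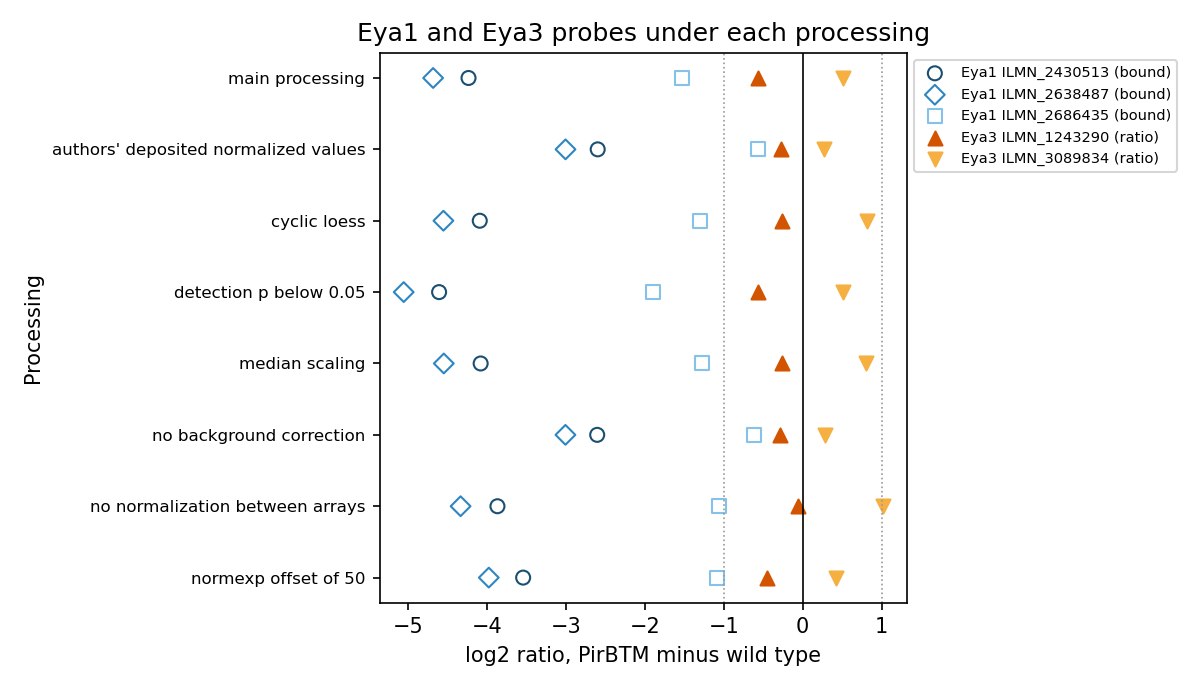
log2 ratio of PirBTM minus wild type (horizontal axis) for the probes of Eya1 and Eya3 that were above background, under the main processing and 7 alternatives (rows); open symbols are bounds and filled symbols measured ratios, and dotted lines mark 2-fold. The Eya1 bounds lie to the left of 0 in every row, and the Eya3 probes lie on opposite sides of 0, at 0.52 and -0.56 in the main processing.

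Of the 7 genes, 2 were above background on at least 1 array, and of these 1, Eya1, was at least 2-fold lower and 0 were at least 2-fold higher. Over the 9432 genes of the arrays that met the same condition, the shares were 9.67% lower and 12.8% higher by at least 2-fold, by ratio or bound. Over the 7858 genes detected on both arrays, the state of Eya3, they were 9.86% and 9.77%. Counts of this size for the family cannot be read against that share. Among genes detected on both arrays, the higher ones were 49.8% of those past 2-fold, but 71.9% after cyclic loess, 62.6% after median scaling and 78.5% with no normalization between arrays. Since RNA was measured in bulk, fewer cells with Eya1 RNA and less Eya1 RNA per cell cannot be told apart.

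The other 5 genes, Eya2, Eya4, Six2, Six4 and Six5, were above background on neither array, and no fold is given for them. Their 10 probes ranged from 139.1 to 179.0 with a median of 153.1 on the PirBTM array, and from 129.0 to 166.5 with a median of 138.5 on the wild-type array. All 10 had the higher deposited signal on the PirBTM array, and so did 84.5% of the 20127 probes of named genes at background on both arrays, where the inferred background was also higher.

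Among the coactivators, Eya2, which works with SIX-family proteins in muscle and other organ progenitors, came nearest to detection on PirBTM. Its probe ILMN_1254886 read 179.0 there (detection p-value 0.0299) and 150.9 on wild type (0.144). Its other probe read 153.7 on PirBTM and 135.7 on wild type. Eya4, mutated in an inherited form of hearing loss and heart muscle disease in humans, was read by 3 probes between 145.1 and 163.3 on PirBTM and between 132.0 and 155.8 on wild type. The lowest detection p-value among the Eya4 probes was 0.0897, on the wild-type array.

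Among the transcription factors, Six5, which lies beside the myotonic dystrophy kinase gene Dmpk, came nearest to detection. Its probe ILMN_1228115 read 175.4 on PirBTM (detection p-value 0.0470) and 166.5 on wild type (0.0310), and its other probe 164.3 and 154.3. Six2, which maintains nephron progenitors, was read by a single probe at 146.5 on PirBTM and 133.7 on wild type. Six4, a factor of muscle progenitors, was read by 2 probes at 139.1 and 152.6 on PirBTM and at 129.0 and 136.7 on wild type. Thus the SIX-family probes stood within 2.33 background SDs of the background mean on both arrays, and a difference between the samples in Six2, Six4 or Six5 was not detectable on these arrays. At a detection limit of 0.05 in place of 0.01, 2 of the 10 probes would count as above background, that of Eya2 on PirBTM and that of Six5 on both arrays.

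The partners of the EYA-SIX network gave counts near those of all genes. Of a list of 20 genes for SIX-family relatives, DACH and SKI cofactors, PAX factors, corepressors and Crebbp, 18 had a named probe, and 10 were above background on an array, with 1 at least 2-fold lower, 1 at least 2-fold higher and 8 within 2-fold, against 9.67% lower and 12.8% higher among all detected genes. Their median log2 ratio was 0.02, beside -0.15 for all genes detected on an array. Six3 and Six6, factors of the eye and forebrain, were at background on both arrays in all 4 of their probes, as were the named probes of Pax2, Pax3 and Pax6, eye and kidney factors. Dach1, a corepressor that binds EYA-SIX complexes, was at least 2.37-fold lower in PirBTM by its brightest probe, with a log2 intensity of 5.51 on PirBTM and 6.91 on wild type. As deposited, this probe read 183.7 on PirBTM (detection p-value 0.0256) and 224.2 on wild type, so the bound rests on signal near background. Of the 5 Dach1 probes, 3 were above background on wild type, with log2 bounds of -1.30, -1.24 and -0.87, and 2 were dark on both arrays. The SKI-family corepressors, relatives of DACH, leaned the other way by their brightest probes: Skil was 2.20-fold higher (9.45 on PirBTM and 8.32 on wild type) and Ski had a log2 ratio of 0.80. Skil probe ILMN_2443990 was above background on PirBTM only and gave no bound. Skil probe ILMN_2775130 and Ski probe ILMN_2718435 were dark on both arrays. Hdac3, a histone deacetylase of corepressor complexes, was the lowest of the genes of this list above background on both arrays, at -0.42.

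A list of 18 genes held candidate targets of EYA-SIX complexes, drawn from other tissues. Of its 16 genes with a named probe, 9 were above background on at least 1 array, of which 4 were at least 2-fold higher, 0 lower, 4 within 2-fold, and Myog had no bound, beside 12.8% higher and 9.67% lower among all detected genes. The median was 0.62 over the log2 differences of all 9, values at background included, and 1.33 over the 8 with a ratio or bound. Over all genes detected on an array these medians were -0.15 and -0.18. Igfbp5, which encodes an IGF-binding protein, was 34.5-fold higher in PirBTM (13.15 on PirBTM and 8.04 on wild type), and its 3 probes gave 4.99 to 5.11. Slc12a2, the sodium-potassium-chloride cotransporter, was at least 19.5-fold higher by a probe with 10.23 on PirBTM and 5.28 on wild type, a second probe gave a log2 bound of 2.65, and 3 probes were dark on both arrays. Ccnd1, cyclin D1, was the other measured member past 2-fold, at 2.64 by its brightest probe and 2.62 by the next, and Dmpk was at least 4.11-fold higher by its brightest probe, with a second probe dark on both arrays. Myc, the growth transcription factor, had a log2 ratio of -0.13, and Sall1, a kidney progenitor factor, of -0.24, both within the measuring SD. On the same array 5 of 12 stromal and endothelial markers, or 5 of the 8 detected, were at least 2-fold higher and 0 lower. Among all detected genes 12.8% were higher and 9.67% lower. Of the other 7 markers, Col1a2, Col3a1, Kdr and Lepr were at background on both arrays, and 3 lay within 2-fold, among them Pecam1 with a log2 ratio of 0.25. The part of such cells in the values of Igfbp5, Slc12a2, Ccnd1 and Dmpk was not tested.

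A further list held phosphatase substrates and binding partners of EYA proteins. Of its 17 genes, 16 had a named probe and 13 were above background on at least 1 array, with 1 at least 2-fold higher, 0 lower and 12 in between, and a median of 0.08, beside -0.15 for all detected genes. With 12.8% higher and 9.67% lower among all detected genes, these counts show nothing particular to the list. H2ax, the histone dephosphorylated by EYA, had log2 intensities of 11.89 on PirBTM and 11.97 on wild type, a ratio of -0.08. Sting1, a sensor of cytosolic DNA signalling that binds EYA4, was 2.03-fold higher (7.92 and 6.91), and Gnai2, an inhibitory G-protein subunit, had a ratio of 0.93. The lowest were Atm, the DNA-break kinase, at -0.87, with further probes at -1.40 and at a bound of -0.56, and Mapk8, a stress kinase, at -0.70. Further Mapk8 probes above background on both arrays gave -0.47 and -0.30, so its value depended on the probe.

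Eya1 was set beside a list named the MLL-AF9 programme, which mixes HOXA genes and Meis1 with cofactors of the fusion such as Men1, Dot1l and Psip1. Of 18 listed genes 17 had a named probe, and 15 were above background on an array. Of these, 9 were lower by 2-fold or more, 1 higher and 5 within 2-fold, beside 9.67% lower and 12.8% higher among all detected genes. Among those within 2-fold were Men1 (log2 ratio 0.30), Dot1l (-0.24) and Psip1 (0.73), so the counts do not describe target genes alone. The median was -1.94 over ratios and bounds, against -0.18. All 15 were above background on the wild-type array and 12 on the PirBTM array. Hoxa9 was 25.6-fold lower (6.06 on PirBTM and 10.74 on wild type), Hoxa5 at least 33.5-fold, and Meis1 had a ratio of -4.31. The highest were Bcl2, an inhibitor of apoptosis, 2.25-fold higher by its brightest probe, and Runx1, a haematopoietic transcription factor, at 0.90. Further Bcl2 probes above background on both arrays gave log2 ratios of 1.09, 0.87 and 0.78, and the other Runx1 probe gave 1.01. Whether these genes passed 2-fold thus depended on the probe. Hoxa10, like Eya1, was above background on wild type and dark on PirBTM (4.54 and 7.41, a log2 bound of -1.74 by 1 of its 2 probes). The same 2 arrays supply every value, so this likeness is not independent of the difference in Eya1.

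**Figure D3:**
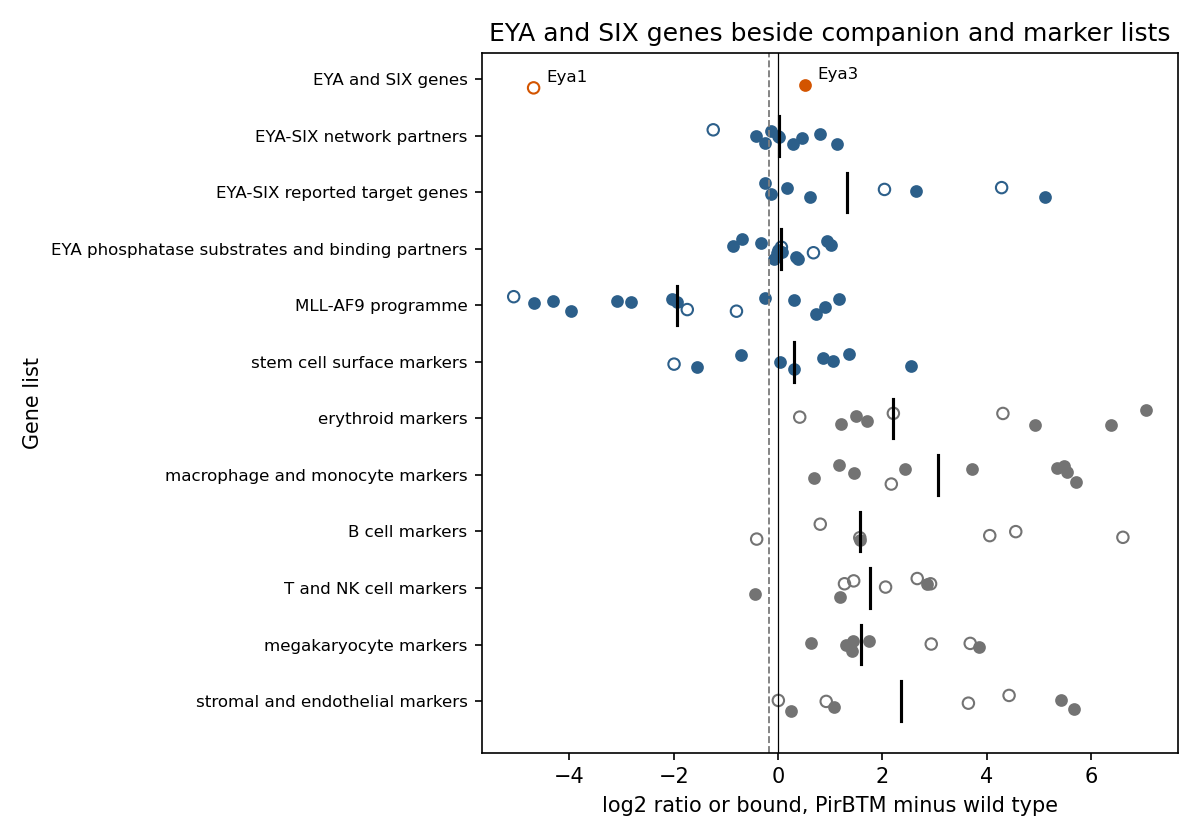
log2 ratio or bound of PirBTM minus wild type (horizontal axis) for each gene above background on at least 1 array, by gene list (rows); filled points are measured ratios, open points bounds, black bars list medians and the dashed line the median of all genes at -0.18. Eya1 stands at -4.68, left of all but 1 point of the other lists, and Eya3 at 0.52, while most marker genes of other marrow cells lie to the right of 0.

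Many markers of other marrow cells were brighter on the array where Eya1 was dark. Of the genes with a named probe, 8 of 10 erythroid, 9 of 11 macrophage and monocyte, 5 of 9 B cell, 7 of 11 T and NK cell, 7 of 8 megakaryocyte and 5 of 12 stromal and endothelial markers were at least 2-fold higher in PirBTM by ratio or bound, and 0 in any of these lists were at least 2-fold lower. Over the 9432 detected genes the shares were 12.8% and 9.67%, which is 1211 and 912 of the 19057 genes with a named probe. Cd8b1, a T cell coreceptor chain, had a log2 ratio of -0.44 and Vpreb1, of the pre-B cell receptor, a bound of -0.41. Of the genes with a named probe, 9 of 10 erythroid, 10 of 11 macrophage and monocyte, 7 of 9 B cell, 8 of 11 T and NK cell, 8 of 8 megakaryocyte and 8 of 12 stromal and endothelial markers were above background on the PirBTM array. On the wild-type array 6, 9, 2, 3, 6 and 4 were. The summed normalized intensity of the erythroid list was 113057 on PirBTM and 28882 on wild type, that of the macrophage list 60605 and 9164, and that of the stromal list 24971 and 1286. For B cells it was 13766 and 1945, for T and NK cells 9500 and 6456, and for megakaryocytes 3883 and 778.8. These sums rest partly on single genes: Cxcl12, a stromal chemokine, made up 68.1% of the stromal sum on PirBTM, Cd8b1 65.3% of the T and NK cell sum on wild type and Cd79b, a B cell receptor chain, 84.2% of the B cell sum on wild type. On the wild-type array Klf1, Epor, Ms4a1, Pax5, Cd3e, Col1a1 and Kdr, defining genes of these lists, were not above background, and on the PirBTM array Pax5, Cd4, Cd8a, Col1a2 and Kdr were not. The part of these cells in the Eya1 difference was not tested.

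The label of the cells was checked on a list of 10 surface genes that mixes antigens of stem and progenitor cells with general leukocyte genes and genes that a stem cell sort leaves out. All 9 that had a named probe were above background on the wild-type array and 8 on the PirBTM array, where Cd34, a progenitor antigen, was dark and at least 3.98-fold lower. Kit, the stem cell factor receptor, was detected on both arrays, at 11.01 on PirBTM and 11.72 on wild type, a log2 ratio of -0.71. Cd33, a myeloid antigen, was 2.93-fold lower. The 3 genes at least 2-fold higher were Il7r, a lymphoid cytokine receptor absent from the usual stem cell gate (5.81-fold), Ptprc, a general leukocyte antigen (2.56-fold), and Fcer1g, an Fc receptor chain (2.08-fold). Cd34 and Cd33 were the 2 at least 2-fold lower. The 4 within 2-fold were Kit, Fcgr3 (log2 ratio 0.04), Fcgr2b (0.31) and Itgam (0.86). Among all detected genes 12.8% were higher and 9.67% lower by at least 2-fold.

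Among the nearest protein-coding genes with a named probe on each side of the 7 genes, 14 in all, 7 were above background on at least 1 array, 1 of them at least 2-fold lower and 1 at least 2-fold higher. Over all genes 50.5% were above background on neither array, and 9.67% and 12.8% of the others were lower and higher, so these counts are near the shares of all genes. The neighbours of Eya1, Xkr9 and Msc, were above background on neither array. Both neighbours of Eya3 were detected, Ptafr, the receptor for platelet-activating factor, with a log2 ratio of -0.76 and Xkr8, a lipid scramblase, with -0.57. Zmynd8 beside Eya2 had a ratio of 0.44, Rps12 beside Eya4 of -0.10 and Fbxo46 beside Six5 of -0.31. Mnat1, a subunit of the CDK-activating kinase beside Six4, was 2.74-fold lower by 2 probes that gave -1.45 and -1.47, and Dmpk beside Six5 is given above.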

How the data were processed

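Signal was read from 1 PirBTM and 1 wild-type array. Per the file headers, the authors deposited averaged bead intensities with detection p-values for every probe; the scanner software is not stated. Their series table holds normalized intensities whose sorted columns differ by at most 0.160%, and served as an alternative. Here, background was corrected with limma 3.58.1 in R 4.3.3 (nec, normexp with negative controls inferred from detection p-values, offset 16), followed by quantile normalization and log2. In the platform annotation 34885 probes had 1 gene, 18 had several and 10378 none; 34807 were matched to RefSeq by gene identifier. The brightest probe stands for a gene. Above background means a detection p-value below 0.01, which held for 36.2% of PirBTM and 33.4% of wild-type probes. Calls are differences of at least 2-fold. The processing was tested on simulated arrays in which only probes well above background were changed, so values near background were not covered. The text names all family probes, the 2 highest and 2 lowest of each companion list among those with a ratio or bound, and the chromosomal neighbours; the 3 genes of nearest ratio to Eya1 are left out, since such ratios rest on values at background; for the marker lists of other cell types, sums and counts stand in their place, and Kit, Meis1, H2ax, Dmpk, Ccnd1, Hoxa10 and other single genes were named after their values were seen. Members and lists were chosen with earlier results of these data known. Alternatives changed the background correction, normalization, detection limit, probe rule and fold threshold. They were run for the family, the values over all genes and the measuring SD. Companion lists, marker lists and neighbours were counted under the main processing only, so how far their counts depend on it was not tested. The number of arrays limits the precision.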

Additional observations from a re-analysis of the deposited data

How the results depend on the processing

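No paired analysis was possible because each group has 1 array, and for the same reason no replicate could be left out. Over 8 alternatives of processing, Eya1 stayed at least 8.04-fold to at least 33.3-fold lower. Its log2 bound of -4.68 became -3.01 in the authors' deposited values and -3.01 without background correction, both of which leave the background in the dim value, -3.98 with an offset of 50, -4.34 with no normalization, -5.06 at a detection limit of 0.05 and -3.48 with the mean of its probes. Eya3 moved from 0.52 to 0.82 with cyclic loess, to 1.02 with no normalization and to -0.024 with the mean of its probes; with no normalization the count of family genes at least 2-fold higher was therefore 1 in place of 0. The 1211 genes at least 2-fold higher became 805 in the deposited values and 802 without background correction, and 1846 at 1.5-fold and 742 at 3-fold. The 912 lower became 390 in the deposited values, 372 without background correction, 502 with cyclic loess, 396 with no normalization, 2404 at 1.5-fold and 262 at 3-fold. Where no construction is named, the cause was not tested. The measuring SD and the count of family genes at least 2-fold lower stayed within 1.5 times their values. Signal near background limits what can be said of Eya2, Eya4, Six2, Six4 and Six5.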
